A study of Rattus norvegicus with 9 samples.

Results

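Transcripts of 10 inflammatory mediators of the joint were followed in RNA sequencing of rat knee cartilage: the cytokines Il1b, Il6 and Tnf, the chemokines Ccl2, Cxcl1 and Cxcl12, the enzymes Ptgs2 and Nos2, and the receptor chains Il1r1 and Il6st. They were chosen by name, and each name stood on 1 row, so they were 10 of the 32043 genes in the deposited table. The control group (3 libraries) came from male Sprague–Dawley rats, 8 weeks old at purchase, whose knee capsule was opened and sutured only. In the model group (3 libraries) rats had the modified Hulth operation for knee osteoarthritis (KOA), which destabilizes the joint by resecting its medial meniscus along with the anterior cruciate and medial collateral ligaments, and activity was forced daily. The SYD group (3 libraries) had the same surgery and then received an extract of Shengyu decoction by gavage for 4 weeks. The labels give no dose, whereas the study names the sequenced animals as its high-dose group (SYD-H), the highest dose it gave to rats. The titles and descriptions of these libraries say SYD, but their library names read CXTB, which nothing explains, and the study also had an arm on a positive-control drug (CXB), so the assignment to SYD rests on the labels. The joints were taken 8 weeks after the operation, and nothing states whether each library is 1 animal, so p-values measure only the spread between these libraries.

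Interleukin-1β and tumor necrosis factor bind receptors on chondrocytes and synovial cells and, through NF-kB, raise chemokines, prostaglandin synthesis and nitric oxide synthesis, and with them the enzymes that degrade cartilage matrix. Interleukin-6 and its relatives signal through a shared receptor chain, gp130, which Il6st encodes. In arthritic joints these mediators come from the lining of the joint and from infiltrating leukocytes as well as from chondrocytes, and most of them are made at low levels until they are induced.

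RefSeq (build GRCr8) gave a promoter for 8 of the 10 genes. Of these, 4 are shown as the 120 bases before the annotated start: Il1b, which passed the test between the operated groups; Cxcl1 and Il6, an inducible chemokine and cytokine near the detection limit in the controls; and Cxcl12, the most abundant of the 10 genes. Capitals mark GGGNNNNNCC on either strand, an NF-kB type motif whose matches on both strands can overlap.
Il1b, chr3:137036582-137036701, minus strand: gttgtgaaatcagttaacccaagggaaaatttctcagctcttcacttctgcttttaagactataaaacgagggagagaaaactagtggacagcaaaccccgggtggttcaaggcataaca
Cxcl1, chr14:17479322-17479441, minus strand: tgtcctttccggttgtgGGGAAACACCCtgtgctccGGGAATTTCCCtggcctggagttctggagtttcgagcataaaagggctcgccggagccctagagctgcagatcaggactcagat
Il6, chr4:5894576-5894695, minus strand: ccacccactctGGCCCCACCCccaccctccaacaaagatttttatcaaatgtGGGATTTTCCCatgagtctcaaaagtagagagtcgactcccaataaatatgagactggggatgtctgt
Cxcl12, chr4:152060661-152060780, plus strand: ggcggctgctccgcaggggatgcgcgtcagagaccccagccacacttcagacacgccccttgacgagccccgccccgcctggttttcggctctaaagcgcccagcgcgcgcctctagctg
Within 250 bases before the start the motif was found in 5 of the 8 genes (Il6, Tnf, Cxcl1, Ptgs2 and Il1r1) and in 42.3% of all 33469 promoters of that length. The stretches of Cxcl1 and Il6 hold marked blocks, while those of Il1b and Cxcl12 hold none. These matches describe letters, and binding was not measured.

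The libraries held 14914121 to 19510537 reads on genes, recovered from the FPKM values, but their make-up differed between the groups. Mitochondrial transcripts took 4.05% to 4.86% of the reads in the control libraries, 90.7%, 39.5% and 81.3% in model libraries 1, 2 and 3, and 23.7%, 34.7% and 72.7% in SYD libraries 1, 2 and 3. Reads outside the mitochondrial genome fell to 1744769 in model library 1, 3611325 in model library 3 and 5153851 in SYD library 3, against 11106680 to 17373645 in the other six. The authors' FPKM scale follows these other reads, so that 3 reads of Il1b, the floor used here, equal 0.0407 to 0.0535 FPKM in the controls and 0.442 FPKM in model library 1. Summed chondrocyte markers (14 genes) were 496 to 11832 FPKM in the control, 204 to 933 in the model and 191 to 1536 in the SYD libraries, and Matn1 was at 0 in every operated library. Transcripts of other cells stood beside those of cartilage. Summed neutrophil markers (11 genes) were 3027 to 5812 FPKM in the control, 7962, 69.8 and 1978 in model libraries 1, 2 and 3 and 541, 853 and 3430 in SYD libraries 1, 2 and 3. Summed erythroid markers (8 genes) were 6563 to 16314 FPKM in the control, 38222, 296 and 42469 in model libraries 1, 2 and 3 and 1312 to 13582 in the SYD libraries. In such bulk samples fewer cells of a type and less RNA per cell cannot be told apart. The labels' extraction text speaks of retina, but the 7 photoreceptor markers summed to at most 3.5 FPKM in any library.

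The 10 genes spanned the range from an abundant transcript to a few reads. Cxcl12 averaged 60.2 FPKM over the 9 libraries and ranked 414 among all genes, followed by Il6st (10.1), Il1r1 (3.37) and Ccl2 (2.15), while Il1b, Nos2, Cxcl1, Ptgs2, Il6 and Tnf averaged 0.986, 0.561, 0.524, 0.411, 0.332 and 0.130 FPKM. In this order Cxcl12 exceeded Il6st in 8 of 9 libraries, Il6st exceeded Il1r1 in 8 and Il1r1 exceeded Ccl2 in 7. Further down, Ccl2 exceeded Il1b in 5 libraries, Il1b exceeded Nos2 in 7, with both at 0 in model libraries 1 and 3, and Nos2 exceeded Cxcl1 in 5. Cxcl1 exceeded Ptgs2 in 2 libraries, Ptgs2 exceeded Il6 in 6 and Il6 exceeded Tnf in 3, so most of these lower neighbours kept no fixed order. Of the 10 genes, 7, 3 and 5 were listed at 0 in model libraries 1, 2 and 3, 1 or 2 in each SYD library and at most 1 in each control library. The mean FPKM over all 9 libraries was at least 0.5 for 7 of the 10, which were tested with limma on log2(FPKM + 1) among 13898 genes. Cxcl1 reached that mean only through the SYD libraries, so its calls in comparisons with SYD are descriptions. A gene counted as differentially expressed (DEG) at an unadjusted p under 0.05 with an absolute log2 fold change over 1. Such fold changes understate the change of genes near or below 1 FPKM. The other three (Il6, Ptgs2 and Tnf) were compared only by exact permutation of the libraries, two-sided, where 3 against 3 cannot give a p below 0.1.

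**Figure D1:**
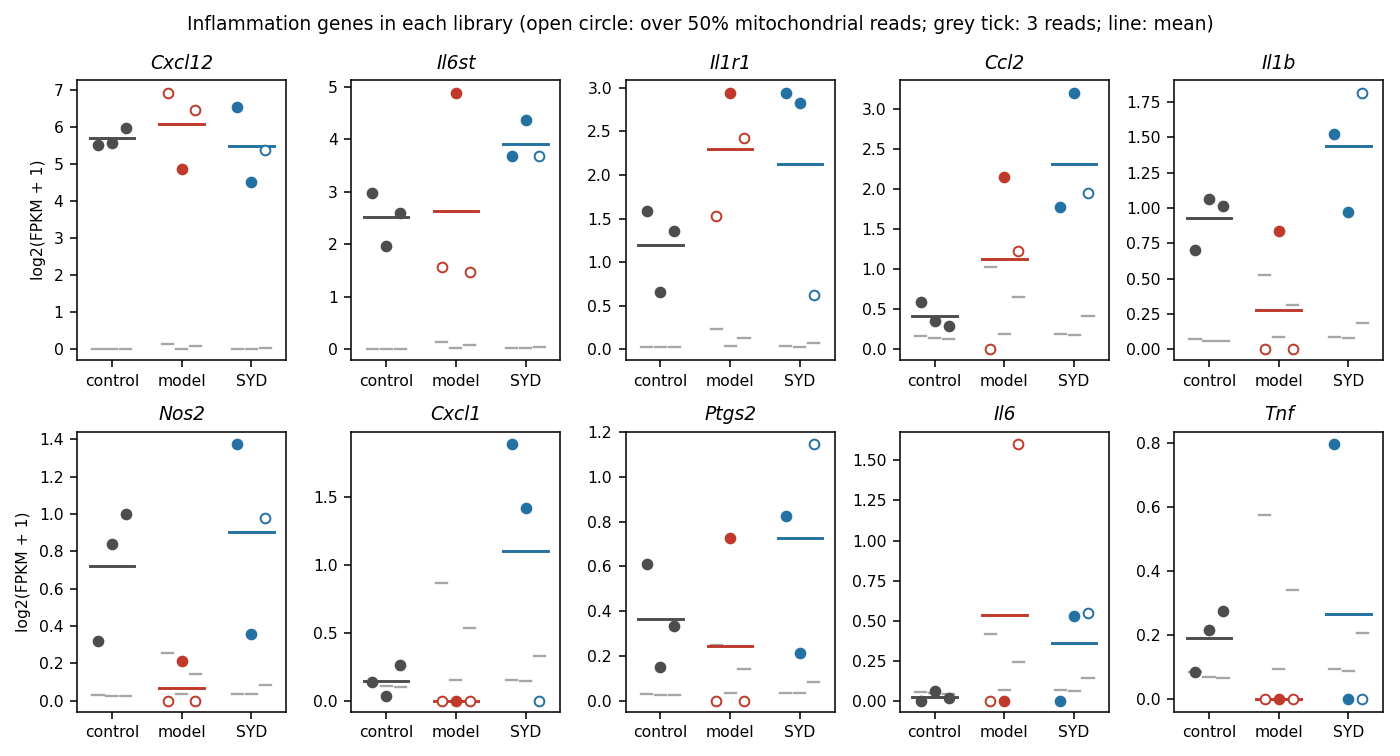
Level of each of the 10 genes, as log2(FPKM + 1), in the control, model and SYD libraries (3 each, in replicate order from left to right). Circles are libraries, open where over 50% of the reads were mitochondrial, coloured lines are group means, and grey ticks are the level that 3 reads would give. Model libraries 1 and 3 lie at 0 for Il1b, Nos2, Cxcl1, Ptgs2 and Tnf, and the SYD libraries lie above the control libraries for Il6st and Ccl2.

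Il1b (ENSRNOG00000004649) encodes interleukin-1β, a cytokine that drives matrix loss in cartilage. Control libraries 1 to 3 held 0.624, 1.09 and 1.02 FPKM, the model libraries 0, 0.790 and 0 and the SYD libraries 1.87, 0.961 and 2.51. Every SYD library was above every model library, whereas the control libraries overlapped with the SYD ones. The SYD mean was 1.78 FPKM ± 0.779 (SD, n = 3) and the model mean 0.263 ± 0.456, a log2 fold change of 1.16 (SE 0.41, 95% interval 0.18 to 2.14) that made Il1b a DEG by limma, with an adjusted p of 0.723 (exact permutation p = 0.10). In TPM, where the values are rescaled to equal sums in every library, the fold was 1.51 (SE 0.76) and the call was lost, as it was after quantile normalization, at 0.58 (SE 0.39). Model against control gave -0.65 (SE 0.30, limma adjusted p = 0.310). This value was -0.03 after quantile normalization, -0.09 without the 3 libraries above 50% mitochondrial reads and -1.99 in TPM (a DEG). Without model library 2 it was -0.93 (limma adjusted p = 0.0206). That fit compares the controls with model libraries 1 and 3, both at 0, where 3 reads equal 0.442 and 0.242 FPKM. At the control mean 6.19 and 11.3 reads would have been expected in model libraries 1 and 3, where none was counted. SYD against control gave 0.51 (interval -0.13 to 1.15), which turned to -0.48 in TPM. The call between SYD and model was lost, at log2 fold changes of 0.97 to 1.11, without model library 1, model library 3, SYD library 1 or SYD library 3, and it rested on 39 reads in the model group. Without the 3 libraries above 50% mitochondrial reads the difference was 0.41 (SE 0.36), with 1 model library left.

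Il1r1, the signaling receptor for interleukin-1, was at 2.0, 0.584 and 1.56 FPKM in the control, 1.89, 6.64 and 4.36 in the model and 6.67, 6.07 and 0.543 in the SYD libraries. Model libraries 2 and 3 and SYD libraries 1 and 2 exceeded every control library, but model library 1 lay within the control range and SYD library 3 just below it. The log2 fold change of model against control was 1.10 (SE 0.50, 95% interval -0.13 to 2.32, limma adjusted p = 0.311), and it reversed to -0.94 in TPM. Without model library 1 it was 1.48, a DEG (limma adjusted p = 0.0929), and without model library 2 it was 0.78. SYD against control gave 0.93 (interval -0.74 to 2.59), and SYD against model gave -0.17 (interval -2.0 to 1.66), which reversed to 1.01 in TPM. The first of these values moved with each SYD library left out. It was 0.52 without SYD library 1 and 0.58 without SYD library 2. Without SYD library 3 it was 1.68 (SE 0.31, limma adjusted p = 0.0257), with only 30 reads of Il1r1 in that library against 849 and 826 in SYD libraries 1 and 2.

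Il6 encodes interleukin-6, a cytokine that rises in inflamed synovium. It was barely detected in the control libraries, at 0, 0.0444 and 0.0104 FPKM from 5 reads in all. In the model group it was at 0, 0 and 2.03 FPKM, with 33 reads in model library 3 alone, and in the SYD group at 0, 0.446 and 0.461 FPKM. Each group thus held at least 1 library at 0, the 3 groups overlapped, and the exact permutation p was 1.00, 1.00 and 0.40 for model against control, SYD against model and SYD against control.

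Il6st (ENSRNOG00000013963), which encodes the gp130 chain shared by the receptors of interleukin-6, oncostatin M and leukemia inhibitory factor, was 1 of 2 genes of the 10 that were higher in every SYD than in every control library and passed the test. The control libraries held 6.91, 2.94 and 5.04 FPKM, the model libraries 1.98, 28.5 and 1.78 and the SYD libraries 11.9, 19.8 and 11.8. The SYD mean of 14.5 FPKM ± 4.56 (SD, n = 3) was 2.92 times the control mean of 4.97 ± 1.98. The log2 fold change was 1.39 (SE 0.33, 95% interval 0.59 to 2.20, limma adjusted p = 0.0400), but it was 0.05 in TPM and its adjusted p was 0.440 with all 9 libraries in one limma fit. Leaving out any one library kept the DEG call, with limma adjusted p values of 0.0473 to 0.129. In the model group, library 2 held the highest value of all 9 libraries and libraries 1 and 3 the lowest, so that model against control was undetermined at 0.12 (interval -2.22 to 2.46), reversing to -2.24 in TPM. SYD against model was 1.27 (interval -0.98 to 3.53), which became 2.39 (SE 0.36, limma adjusted p = 0.106) without model library 2, 0.74 without model library 1 and 0.69 without model library 3, and reversed to -0.85 without the 3 libraries above 50% mitochondrial reads.

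On the deposited FPKM scale, markers of endothelial cells, fibroblasts and osteoblasts were also higher in the SYD than in the control libraries. The FPKM total of a library, by which TPM divides, was 186938 to 202792 in the control and 320987 to 1398304 in the SYD libraries. The sums were not compared in TPM, where this order need not hold. The summed level of 7 endothelial genes, none of them at 0 throughout a group, was 33.9 to 45.5 FPKM in control rats, 99.8 to 133 with SYD, and 19.8, 243 and 57.8 in model libraries 1, 2 and 3. Summed markers of joint fibroblasts (9 genes) were 101 to 220 FPKM in the control, 129, 665 and 335 in model libraries 1, 2 and 3 and 377 to 724 in the SYD libraries. Those of osteoblasts (8 genes) were 3005 to 5971 in the control, 2633, 7481 and 1248 in the model and 7764 to 10498 in the SYD libraries. The part of these cells in the SYD levels of Il6st and Ccl2 was not tested. Among the 13898 genes, the 3 whose log2(FPKM + 1) was most like that of Il6st over the 9 libraries were Ppp2r3a (Pearson r = 0.987), ENSRNOG00000064142 (0.985) and Cdh5, the cadherin of endothelial junctions (0.985). These correlations describe 9 points that share group, depth and scaling.

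Tnf encodes tumor necrosis factor. Its level was 0.0592, 0.161 and 0.210 FPKM in control rats, 0 in all 3 model libraries and 0.737, 0 and 0 with SYD. The model libraries lay below every control library, with an exact permutation p of 0.10, the smallest possible. At the control mean, however, 0.881, 6.40 and 1.61 reads would have been expected in model libraries 1, 2 and 3, and 3 reads would have read as 0.0673 to 0.489 FPKM, so a loss of Tnf was not detectable at this depth in libraries 1 and 3 and no fold is given. The SYD group's signal came from 33 reads of SYD library 1.

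Ccl2 (ENSRNOG00000007159), the chemokine that recruits monocytes through the receptor Ccr2, was the other gene that passed the test between SYD and control. The control libraries held 0.510, 0.277 and 0.226 FPKM, the model libraries 0, 3.47 and 1.34 and the SYD libraries 2.45, 8.22 and 2.88. Every SYD library stood above every control library, while the model group ran from 0 to a level within the SYD range. The SYD mean was 4.52 FPKM ± 3.21 (SD, n = 3) and the control mean 0.338 ± 0.151, a ratio of 13.4 that rests on 12, 8 and 7 reads in control libraries 1, 2 and 3. The log2 fold change of 1.90 (SE 0.40, 95% interval 0.92 to 2.89, limma adjusted p = 0.0302) kept its DEG call without any one library, from 1.46 to 2.17. Its limma adjusted p, however, was 0.0815, 0.110 and 0.121 without control library 1, 2 or 3 and 0.137 with all 9 libraries in one fit. The fold was 1.62 (SE 0.71) in TPM, where the call was lost (limma adjusted p = 0.119). Model against control was 0.72 (interval -0.61 to 2.04), which reversed to -0.17 in TPM, and without model library 1, in which 0.963 reads would have been expected at the control mean and 0 were found, it was 1.28 (SE 0.33, limma adjusted p = 0.0885), a DEG, whereas without model library 2 it was 0.20 (SE 0.39). SYD against model was 1.19 (interval -0.53 to 2.91), which fell to 0.62 without model library 1 and 0.74 without SYD library 2, and to 0.33 without the 3 libraries above 50% mitochondrial reads.

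Cxcl1, a neutrophil-attracting chemokine that acts on Cxcr2, was read 12 times in the control group, at 0.0995, 0.0271 and 0.202 FPKM. All 3 model libraries held 0 and the SYD libraries 2.70, 1.68 and 0, so that 2 SYD libraries, with 72 and 48 reads, stood above all others. Against the floor of 3 reads per library in the model group, the SYD mean was at least 0.59 higher than the model on the log2(FPKM + 1) scale, although SYD library 3 held no read either. The limma estimate for this comparison was 1.10 (interval -0.10 to 2.31, exact permutation p = 0.40), and it ran from 0.71 without SYD library 1 to 1.66, a DEG, without SYD library 3. The limma estimate for SYD against control was 0.96 (interval -0.23 to 2.14). Without SYD library 3, which held no read where 1.27 were expected at the control mean, it was 1.51 (SE 0.17), whereas without SYD library 1 it was 0.57 (SE 0.43). Cxcl1 was tested only because its SYD mean of 1.46 FPKM lifted it over the filter, beside 0.110 in the control and 0 in the model. These estimates are therefore descriptions. No fold is given for model against control, since the control mean lay under the floor of the model libraries.

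Cxcl12, a chemokine that retains CXCR4-bearing cells in bone marrow and is made by stromal and endothelial cells, was read by 3182 to 17967 reads per library. It was at 44.9, 46.6 and 61.5 FPKM in the control, 119, 28.2 and 86.2 in the model and 92.3, 21.7 and 40.6 in the SYD libraries. The operated libraries spread to both sides of the controls, and the groups overlapped. Model against control was 0.39 (95% interval -0.93 to 1.70), SYD against model -0.60 (interval -2.29 to 1.09) and SYD against control -0.21 (interval -1.47 to 1.05), of which the first reversed to -2.78 and the second to 1.03 in TPM, while the third was -1.75. The genes most like Cxcl12 over the 9 libraries were Uvssa (r = 0.961), Pik3r1 (0.934) and Prodh (0.922), and those most like Il1r1 were Arhgap42 (0.992), Skil (0.975) and Psd3 (0.950), again as descriptions.

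The ratio of Il6st to Cxcl12 within a library, chosen after the values were seen, does not depend on how libraries are scaled. It was 0.154, 0.0631 and 0.0820 for control rats, 0.0166, 1.01 and 0.0207 for model rats and 0.129, 0.911 and 0.291 with SYD. Model library 2 was the only library in which Il6st exceeded Cxcl12 per length, SYD library 2 came next, and the ratio was lowest in model libraries 1 and 3. On the log2 scale SYD exceeded control by 1.81 (exact permutation p = 0.200) and the model by 2.21 (exact p = 0.40), within the spread of the libraries.

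Ptgs2 encodes cyclooxygenase-2, the inducible enzyme of prostaglandin synthesis. It was at 0.525, 0.112 and 0.261 FPKM in the control, 0, 0.656 and 0 in the model and 0.774, 0.161 and 1.21 in the SYD libraries. Model library 2 stood above all 3 control libraries although libraries 1 and 3 had no read where 4.76 and 8.71 were expected at the control mean. All 3 groups overlapped, and the exact permutation p was 0.60 for model against control, 0.200 for SYD against model and 0.300 for SYD against control.

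Nos2, the inducible nitric oxide synthase, stood at 0.249, 0.793 and 1.00 FPKM in control rats, 0, 0.159 and 0 in model rats and 1.59, 0.280 and 0.974 with SYD. Both other groups lay wholly above the model group, which held 18 reads where 107 were expected at the control mean, with 10.6, 77.1 and 19.4 of these in model libraries 1, 2 and 3. The log2 fold change of model against control was -0.65 (SE 0.22, interval -1.19 to -0.11, limma adjusted p = 0.189) and that of SYD against model 0.83 (SE 0.32, interval 0.06 to 1.60, limma adjusted p = 0.723), and neither passed the fold threshold. Without SYD library 2 the second was 1.11, a DEG (limma adjusted p = 0.947). With a pseudocount of 0.1 in place of 1 both folds passed it, at -2.35 and 2.69, whereas after quantile normalization they were -0.00 and 0.20. SYD against control was 0.18 (interval -0.60 to 0.96), which turned to -0.69 in TPM.

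Summed macrophage and monocyte markers (12 genes, Marco at 0 in every library) were 1116 to 1697 FPKM in the control, 263 to 492 in the model and 338 to 682 in the SYD libraries, and summed T and natural killer cell markers (8 genes) were 36.9 to 52.5, 1.46 to 12.6 and 6.86 to 10.2 FPKM. Summed B lineage markers (8 genes) were 284 to 379, 7.52 to 56.0 and 9.43 to 41.2 FPKM. Of the T and natural killer cell markers, Cd3e, Cd3g, Cd3d, Nkg7 and Cd247 were at 0 in every model library. These sums were below the control in every library of both operated groups. The part of these cells in the results was not tested.

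Between model and control, 0 of the 7 tested genes was a DEG, at a background of 14.7% of all genes tested (3.55% higher and 11.2% lower). By limma 1 of the 7, Nos2, had an unadjusted p under 0.05 against 19.2% of all genes, voom on the recovered reads called Il1r1 and Nos2 against 23.6% of all genes, and 0 of the 7 had an adjusted p under 0.05 against 2.59% of all genes. The libraries of the groups did not overlap for 2 of the 7, against 28.7% of all genes. One was Nos2, lower in the model. The other was Cxcl1, with every model library at 0 and a control mean under the floor of the model libraries, so that no direction is read from it. With model library 2 as the only model library below 50% mitochondrial reads, and assumed to vary like the controls, Ccl2 (1.75, SE 0.16), Il1r1 (1.73, SE 0.44) and Il6st (2.36, SE 0.46) were DEGs, all higher, against 23.8% of all genes in that setting.

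Between SYD and model, 1 of the 7, Il1b, was a DEG and higher, against 4.15% of all genes (3.62% higher and 0.532% lower). No gene of the whole table had an adjusted p under 0.05 by limma (0%), with 0.723 as the smallest, nor by voom on the recovered reads, while 731 genes (5.26%) had an unadjusted p under 0.05, of the 7 Il1b and Nos2. Their libraries did not overlap, against 11.1% of all genes, and the intervals of the other five include differences of more than 1 on the log2 scale in at least 1 direction.

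Between SYD and control, 2 of the 7, Ccl2 and Il6st, were DEGs, both higher, against 16.5% of all genes (7.25% higher and 9.22% lower). These same 2 had an adjusted p under 0.05 and did not overlap between groups, where the shares over all genes were 17.3% and 42.5%. The 3 comparisons share libraries pairwise, so their values are not independent of each other.

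**Figure D2:**
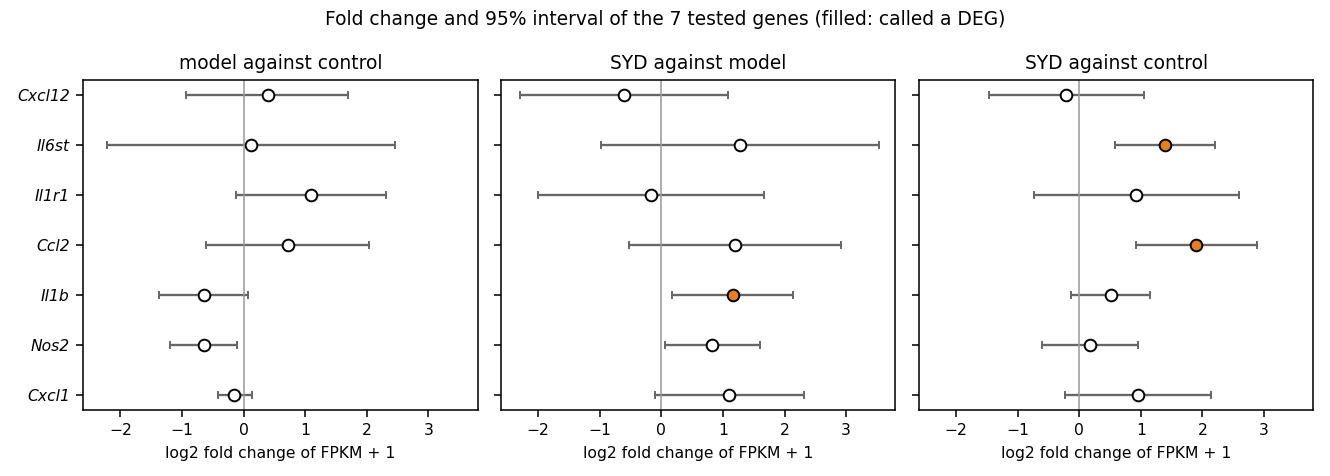
Log2 fold change of FPKM + 1 for the 7 tested genes in the 3 comparisons, as points with 95% intervals from limma, filled where the gene was called a DEG. Il1b is filled between SYD and model at 1.16, and Ccl2 and Il6st between SYD and control at 1.90 and 1.39. In TPM these calls were lost, at 1.51, 1.62 and 0.05.

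The deposited FPKM hold the bulk of the non-mitochondrial genes level. In TPM mitochondrial transcripts count toward the sum of each library, and their share of the reads differed between the groups. There the median log2 fold change of all genes shifted from -0.23 to -2.6 between model and control. It shifted from 0.22 to 1.22 between SYD and model and from 0.00 to -1.31 between SYD and control. Relative to these shifts, Ccl2 between SYD and control stood above the median of all genes on both scales, at 1.90 and 1.62, and Il6st at 1.39 and 0.05. Rescaling to non-mitochondrial reads changed no call among the 7 genes.

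**Figure D3:**
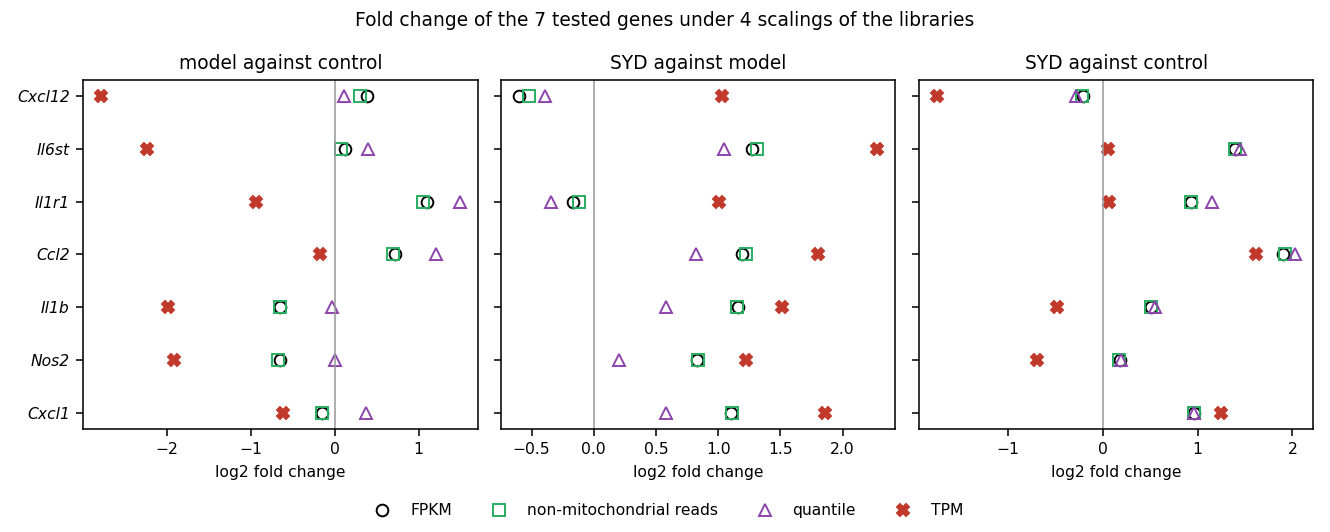
Log2 fold change of the 7 tested genes in the 3 comparisons with FPKM as deposited, FPKM rescaled to non-mitochondrial reads, quantile normalization and TPM. The TPM symbols of Cxcl12, Il6st, Il1r1 and Ccl2 lie on the other side of 0 from the FPKM symbols between model and control, while Ccl2 stays above 1 on all 4 scales between SYD and control.

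Other genes of the same pathways were read from 5 lists of 125 genes, of which 122 were in the table and 104 were tested. Between model and control 3 of the 104 had a limma adjusted p under 0.05, beside 2.59% of all genes. Between SYD and model 0 did (0% of all genes), and between SYD and control 19 did, beside 17.3%. Of the 104, 5 were DEGs higher and 10 lower between model and control (14.4%), 2 higher and 0 lower between SYD and model (1.92%) and 13 higher and 8 lower between SYD and control (20.2%), beside 14.7%, 4.15% and 16.5% of all genes. In TPM the counts were 0 and 72, 3 and 0, and 1 and 44, beside 75.2%, 3.81% and 43.4% of all genes. The balance between model and control also moved the other way, to 10 higher and 8 lower after quantile normalization (14.7% of all genes) and 19 higher and 18 lower without the 3 libraries above 50% mitochondrial reads (23.8%). Of the 13 genes called higher in SYD than in control only Hpgd kept its call in TPM, whereas the 8 called lower all kept theirs. Of the 5 called higher in the model than in control none kept its call in TPM, and the 10 called lower did. Quantile normalization ended the calls of Nfkbia (0.99), Rel (-0.77) and Cxcr2 (-1.52) between model and control and of Il1r2 (1.33) between SYD and model. Cxcr2 and Il1r2 stayed over the fold threshold and lost their calls on p alone. Without the libraries above 50% mitochondrial reads, which leaves 1 model library, Il33, Il11ra1 and Ptges2 fell under the fold threshold between model and control, at 0.91, 0.71 and -0.61. Between SYD and model the calls of Il1r2 and Nfkbia were lost at folds of 1.91 and 1.25, still over that threshold. Between SYD and control the calls of Ikbkg and Ptgfr were lost at -0.77 and 1.16. With voom the calls of Il33, Il11ra1 and Cxcr2 between model and control were lost on p alone, at log2 fold changes of 2.23, 1.53 and -4.39.

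In the IL-1 pathway (16 tested), Il1r2, the decoy receptor that binds interleukin-1 without signaling, ranged from 2.13 to 6.88 FPKM in control rats and from 0.871 to 6.55 with SYD, and was at 0 in all 3 model libraries. Against the floor of 3 reads per library the change from control to model was -1.94 or lower and SYD was at least 1.49 higher than the model, on the log2(FPKM + 1) scale (limma adjusted p = 0.0469 and 0.723). The second call was lost after quantile normalization, at 1.33, and without the libraries above 50% mitochondrial reads, at 1.91 (SE 1.17). The cytokines Il18 and Il33 rose in the model by 1.52 (SE 0.32) and 1.92 (SE 0.66) as DEGs (limma adjusted p = 0.0713 and 0.190), at 5.21 to 7.39 and 1.92 to 14.6 FPKM, but in TPM Il18 turned to -0.89 and Il33 fell to 0.03. Pycard, the inflammasome adaptor, had a log2 fold change of -1.28 between SYD and control (limma adjusted p = 0.0164), while Tab2 and Irak1, the other abundant members, passed no test. The list had 3, 1 and 1 DEGs in the 3 comparisons (18.8%, 6.25% and 6.25%, beside 14.7%, 4.15% and 16.5% of all genes). Its medians were -0.21, -0.14 and -0.27 against -0.23, 0.22 and 0.00 over all genes.

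In the IL-6 family (16 tested), the oncostatin M receptor Osmr, which pairs with gp130, and Socs3, the feedback inhibitor that gp130 signaling induces, were DEGs higher in SYD than in control. They were 2 of the 16 (12.5%), beside 7.25% of all genes called higher and 16.5% called in either direction. Osmr was at 0.762 to 1.59 FPKM in the control, 0 to 5.63 in the model and 6.95 to 7.93 in the SYD libraries, a log2 fold change of 1.89 (SE 0.21, limma adjusted p = 0.00814; 0.94 in TPM, where the call was lost). Socs3 was at 2.10 to 3.90, 2.66 to 10.2 and 5.76 to 13.0 FPKM, with 1.44 (SE 0.34, limma adjusted p = 0.0408; 0.20 in TPM, also lost). Il6r, the ligand-binding chain, was a DEG lower in the model at 1.23 to 2.18 against 6.11 to 7.0 FPKM (limma adjusted p = 0.0824). Il11ra1 was a DEG higher in the model at 1.95 (limma adjusted p = 0.203), which turned to -0.69 in TPM. Jak1, Ptpn11 and Stat3, the 3 most abundant members, passed no test of a DEG. The list had 2, 0 and 2 DEGs (12.5%, 0% and 12.5%, beside 14.7%, 4.15% and 16.5% of all genes) with medians of -0.03, 0.48 and 0.17.

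In the TNF and NF-kB pathway (25 tested), Nfkbia, the inhibitor IκBα that NF-kB itself induces, was the only gene of the 5 lists called in all 3 comparisons on the deposited scale. It was at 9.65, 11 and 12.8 FPKM in the control, 30.1, 24.9 and 17.2 in the model and 92.5, 39.7 and 43.2 in the SYD libraries, with no overlap between any 2 groups. Of all genes, 28.7% did not overlap between model and control, 11.1% between SYD and model and 42.5% between SYD and control. Its log2 fold changes were 1.02 (SE 0.28, limma adjusted p = 0.122) for model against control, which turned to -2.0 in TPM and lost its call at 0.94 after rescaling to non-mitochondrial reads and at 0.99 after quantile normalization, 1.17 (SE 0.41, adjusted p = 0.723) for SYD against model and 2.19 (SE 0.34, adjusted p = 0.0157) for SYD against control. In TPM the second was 2.74 (SE 1.27) and the third 0.74 (SE 0.78), and both calls were lost. Nfkbiz, a nuclear cofactor of NF-kB, and Tnfaip6, a secreted hyaluronan-binding protein that TNF induces, were DEGs higher in SYD than in control by 2.24 and 1.61, which became 1.29 and 1.00 in TPM, where both calls were lost. Ikbkg was lower, at -1.01, and at -0.77 without the libraries above 50% mitochondrial reads, where its call was lost. Rel, a leukocyte subunit of NF-kB, was at 0 in all 3 model libraries against 1.44 to 1.90 FPKM in the control, and Tnfrsf1b, a TNF receptor of leukocytes, was at 0 to 2.40 against 5.18 to 5.25. Both were DEGs lower (limma adjusted p = 0.0382 and 0.197), although Rel was at -0.77 after quantile normalization and no longer called. Tnip1 and Tnfrsf1a, the other abundant members, were no DEGs, and the list had 3, 1 and 4 DEGs with medians of -0.09, 0.34 and -0.11.

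Among the chemokines and their receptors (22 tested), 5 were DEGs higher and 3 lower in SYD than in control, beside 7.25% and 9.22% of all genes, and in TPM 0 were higher and 5 lower. Of the 5 that were higher, Ccl5, Ccl7, Ccl9 and Cxcl16 are ligands and Ackr3 is a scavenging receptor of Cxcl12, with log2 fold changes of 1.33, 1.24, 1.29, 1.91 and 1.07, and of 0.85, 1.21, 0.23, 0.75 and 0.23 in TPM, where none of them was called. In the same order, their limma adjusted p on the deposited scale was 0.0377, 0.0378, 0.128, 0.0108 and 0.0868. The 3 lower were Cxcr4, the signaling receptor of Cxcl12, Ccr2, the receptor of Ccl2, and Cxcr2, the receptor of Cxcl1, and the same 3 were lower in the model than in control. Cxcr4 was at 42.8 to 65.4 FPKM in the control, 14.3 to 21.3 in the model and 14.6 to 21.8 in the SYD libraries, Ccr2 at 7.16 to 8.53, 0.0583 to 1.31 and 1.08 to 1.79, and Cxcr2 at 3.93 to 8.90, 0 to 4.63 and 0.729 to 2.03. For SYD against control the limma adjusted p was 0.0135, 0.00766 and 0.0284, and for model against control it was 0.0495, 0.0515 and 0.238. Cxcr2 also stands in the neutrophil list, and the sums of macrophage, T cell and B lineage markers given above were also lower. Their part was not tested. Cxcl14 and Ccl6, the other abundant ligands, were no DEGs, at log2 fold changes of 0.99 and -0.36 between SYD and control. Cxcl14 missed only the fold threshold (limma adjusted p = 0.0428), and its fold turned to -0.55 in TPM. The list had 3, 0 and 8 DEGs (13.6%, 0% and 36.4%, beside 14.7%, 4.15% and 16.5% of all genes). Its medians were 0.16, 0.33 and 0.62, the first of which was 0.19 without the 2 genes whose means lay at or under the floor in both groups.

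Among the prostaglandin and nitric oxide genes (25 tested), Ass1, which regenerates arginine for nitric oxide synthesis, was at 11.8 to 15.7 FPKM in the control, 0.949 to 10.4 in the model and 0.911 to 2.59 in the SYD libraries. It was lower as a DEG in both operated groups, with a limma adjusted p of 0.260 in the model and 0.00814 with SYD. Nos3, the endothelial nitric oxide synthase, was at 0.619 to 1.17, 0 to 15.5 and 5.54 to 7.38 FPKM, higher by 1.99 (SE 0.20, limma adjusted p = 0.00802) in SYD than in control, but by 1.19 in TPM, where the call was lost. Hpgd, which inactivates prostaglandins, was higher in SYD than in control by 1.63 (1.85 in TPM) and Ptgfr, the receptor of prostaglandin F, by 1.22 (0.08 in TPM), while Alox15 and Gch1 were lower, at -3.08 and -1.17. The limma adjusted p of Hpgd, Ptgfr, Alox15 and Gch1 in this comparison was 0.0157, 0.0912, 0.0565 and 0.112. In the model Ptgfr was higher by 2.17 (limma adjusted p = 0.0811), which turned to -0.44 in TPM. Alox5ap, which serves leukotriene synthesis in leukocytes, and Ptges2 were lower in the model (limma adjusted p = 0.0799 and 0.152). Ptges3, which with Alox15 and Alox5ap was the most abundant, differed by 0.08 or less. The list had 4, 0 and 6 DEGs (16.0%, 0% and 24.0%, beside 14.7%, 4.15% and 16.5% of all genes). Its medians were -0.26, 0.12 and -0.15, the first of which was -0.02 with Ptgds, listed at 0 in all 3 model libraries, set to the floor of 3 reads per library.

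**Figure D4:**
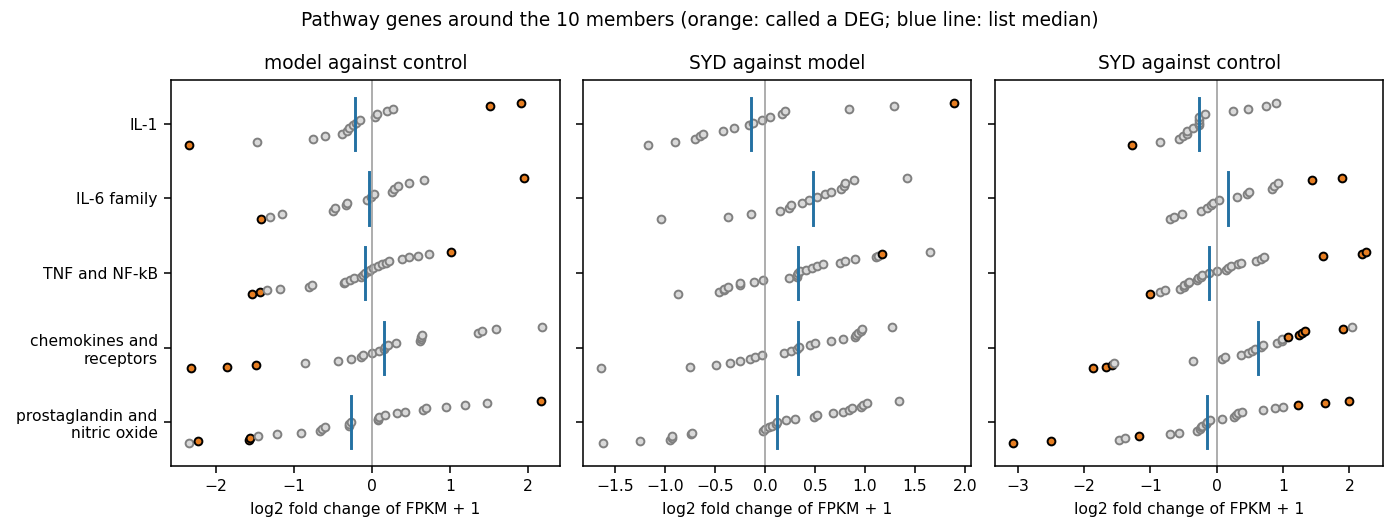
Log2 fold change of FPKM + 1 for the 104 tested pathway genes in the 3 comparisons, 1 circle per gene, orange where it was called a DEG, with the median of each list as a blue line. Between SYD and control 13 genes are orange to the right of 0 and 8 to the left; in TPM 1 and 44 were called, beside 43.4% of all genes.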

How the data were processed

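RNA of rat knee cartilage was sequenced in 9 libraries, 3 each labelled as control, model and SYD. The authors deposited FPKM values, 1 per gene and library, in a single table that also holds gene positions and lengths. The submitters' processing notes name HISAT2 2.0.5 and the human build hg38, although the gene identifiers are of the rat, and the counting tool, annotation and rat build are not given in the sources used here. Whole reads were recovered from the FPKM and gene lengths for 100% of the values in each library, within a tolerance of 0.1 read, and the authors' scale was 0.193 to 2.18 times the total reads.

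Tests used limma 3.58.1 in R 4.3.3 (trend) on log2(FPKM + 1) for 13898 genes with a mean of at least 0.5 FPKM, with the 6 libraries of the groups compared and Benjamini-Hochberg adjustment over all 13898. No count model was the main test, since FPKM are not counts. Single genes were also tested by exact permutation. The code was tested on simulated data. The 10 genes, the 5 pathway lists and the 13 cell type marker lists, of which 10 are given and the other three (marrow stroma, muscle and adipocytes) overlapped between all groups, were chosen with earlier results of these data known. All 10 genes are named, and in each list the 3 tested genes with the highest mean FPKM and those called a DEG. For genes with at least 10 reads in all 9 libraries, the 3 most correlated genes are named. Same-numbered libraries did not deviate together (correlations of -0.267 to 0.194), so the numbers were not taken as pairs. Read floors cover counting error only, and intervals cover the spread between libraries. Alternatives were a pseudocount of 0.1, other filters, TPM, rescaling to non-mitochondrial reads, quantile normalization, 1 fit of all 9 libraries, voom on recovered reads, a replicate block, and leaving out each library. Leaving out the 3 libraries above 50% mitochondrial reads was added after seeing the data. Promoter sequences are from RefSeq, build GRCr8. The build of the positions in the table is not given, and they are not printed.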

Additional observations from a re-analysis of the deposited data

How the results depend on the processing

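Of 327 refits of the 7 tested genes, 272 kept the direction and the side of the DEG thresholds, 11 lost a call and 24 gained one with the direction kept, and 20 changed direction, of which Cxcl12 between model and control in TPM also became a DEG. Between model and control, 0 of the 7 were DEGs as reported, 1 with a pseudocount of 0.1 (Nos2), 3 in TPM (Il1b and Nos2 lower, and Cxcl12 lower), 2 after quantile normalization (Ccl2 and Il1r1), 2 with voom (Il1r1 and Nos2) and 3 without the 3 libraries above 50% mitochondrial reads, beside 14.7% of all genes as reported and 15.4%, 75.2%, 14.7%, 23.6% and 23.8% in these settings. Between SYD and model, 1 was a DEG as reported, 2 with a pseudocount of 0.1 or voom (Il1b and Nos2), 2 with all 9 libraries in one fit (Il1b and Cxcl1), and 0 with a minimum mean of 1 FPKM, where Il1b was not among the genes tested, or after quantile normalization. In TPM 1 gene (Cxcl1 in place of Il1b) was called. The shares of all genes ran from 3.81% to 8.78% in these settings. Between SYD and control, 2 were DEGs as reported, 0 in TPM, 1 (Ccl2) with all 9 libraries in one fit and 4 without the libraries above 50% mitochondrial reads, where Cxcl1 and Il1r1 joined, beside 43.4%, 12.9% and 18.7% of all genes. With a replicate block, which treats same-numbered libraries as pairs, 0 genes were DEGs between SYD and model, where Il1b stayed at 1.16 with a limma p of 0.0708, and the other counts were 0 and 2 as reported; the numbers mark no known pairing. Leaving out 1 library gave 0 to 2, 0 to 2 and 2 to 4 DEGs in the 3 comparisons, with 2 in the first without model library 1 (19.5% of all genes), 2 in the second without model library 2 (18.0%) or SYD library 2 (2.68%), and 4 in the third without SYD library 3 (18.7%). The cause of these changes was not tested.

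Of the 20 changes of direction, 8 came in TPM, 8 on leaving out 1 library, 3 on leaving out the libraries above 50% mitochondrial reads and 1 with quantile normalization. Between model and control TPM gave -0.17 for Ccl2, -2.78 for Cxcl12, -0.94 for Il1r1 and -2.24 for Il6st, between SYD and model 1.03 for Cxcl12 and 1.01 for Il1r1, and between SYD and control -0.48 for Il1b and -0.69 for Nos2. Quantile normalization gave 0.37 for Cxcl1 between model and control, from which no direction is read, since the control mean lay under the floor of the model libraries. Without the libraries above 50% mitochondrial reads, Cxcl12 was -0.82 between model and control and 0.66 between SYD and model, and Il6st was -0.85 between SYD and model. Leaving out 1 library, values ran from -0.03 to 0.99 for Cxcl12 and -0.99 to 0.71 for Il6st between model and control, from -0.57 to 0.58 for Il1r1 between SYD and model, and from -0.75 to 0.27 for Cxcl12 and -0.05 to 0.46 for Nos2 between SYD and control. Ccl2, Il1b, Nos2, Cxcl1, Ptgs2, Il6 and Tnf had at most 183 reads in any library, which limits the precision of their values.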
